A study of Triticum aestivum with 12 samples.

Results

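The 12 probe sets for metallothionein and metal ion binding proteins followed here in developing wheat grain are drawn from 61179 on the array. They are the 3 probe sets that the study annotated as metallothionein (Ta.28347.1.S1_s_at), manganese ion binding (Ta.5280.3.S1_at) and transition metal ion binding (Ta.24550.2.S1_s_at), and the 9 other probe sets whose identifiers share their first number with one of them. These 9 are called sisters here. There are 2 probe sets in the metallothionein cluster, 4 in that of the manganese ion binding probe set and 6 in that of the transition metal ion binding probe set. The first number of an identifier is that of a UniGene cluster of transcripts, and the second tells apart the sequences assembled within it. A suffix s or x marks probes that can also match other transcripts, and a suffix a marks probes shared by transcripts of 1 gene. Probe sets of the same sequence can share probes, so they are not independent measurements. No platform gene name was given for any of the 12, and the sisters carry no annotated function here.

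The study compared grains of IITR26, a wheat landrace with a high mineral concentration in the grain, and WL711, a cultivar with a low one, to find transcripts that differ during grain filling. Both were grown untreated in the same field, and grains were taken at 28 and 14 days after anthesis (DAA), with 3 arrays in each of the 4 groups. Each sample held 3 whole grains from the middle of the ear, which the study treats as a biological replicate. The labels do not say which plant gave which sample, so p-values measure only the spread between these samples. Each genotype is 1 line, so a difference between them cannot be assigned to mineral concentration rather than to any other difference between the lines.

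Metallothioneins are small proteins, rich in cysteine, that bind zinc, copper and other metals through their thiol groups. In plants they buffer free metal ions and take part in protection against oxidative stress, and members of the family are abundant in cereal seeds. Manganese ion binding and transition metal ion binding are broad ontology terms that cover many enzymes and storage proteins, and they do not name a gene. Nicotianamine synthase makes nicotianamine, a chelator that keeps iron and zinc soluble in plant tissues. Superoxide dismutase is a metal-containing enzyme that removes superoxide, and phytochelatin synthase makes metal-binding peptides from glutathione.

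For the metallothionein sequence Ta.28347.1, the study's primer list holds a pair for quantitative PCR, printed because it is the sequence that the sources used here give for this transcript. They are written 5′ to 3′ as the study lists them.

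Ta.28347.1 forward: gcgagcacgaggatgaggaggagaa

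Ta.28347.1 reverse: cgtacagaactaaggaacacatgacggtt

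The forward primer has 25 bases with 60.0% G and C, and the reverse primer has 29 bases with 44.8%.

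All values below are log2 values centred on the median of the 12 arrays for each probe set, so they give differences between arrays and not how bright a probe set is. A difference of 1 is a factor of 2 in signal. Differences were tested with limma over all 61179 probe sets, and a probe set is said to have passed the test at a Benjamini-Hochberg adjusted p of at most 0.01. The WL711 arrays at 28 DAA were the least alike by correlation of the centred values, replicate 1 most of all. Pearson's r between arrays was 0.286 to 0.672 there over all probe sets, against 0.59 to 0.903 in the other groups. On centred values this r also depends on how far a group lies from the median of the 12 arrays. The median of each array lay between -0.00557 and 0.0101. Samples are of whole grains, so fewer cells of a type and less RNA per cell cannot be told apart. A difference in transcript sequence under the probes and a difference in transcript amount cannot be told apart either, since no probe sequences were used.

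The metallothionein probe set was higher in IITR26 at both stages, and its sister did not pass the test at either. At 28 DAA Ta.28347.1.S1_s_at had 1.21, 1.06 and 1.03 in IITR26, against -1.54, -1.03 and -1.30 in WL711. At 14 DAA it had 1.49, 1.42 and 1.60 in IITR26, against -2.48, -1.96 and -1.75 in WL711. All 6 IITR26 arrays lay above all 6 WL711 arrays. The difference, IITR26 minus WL711, was 2.39 ± 0.18 on the log2 scale (SE, 5.23-fold, limma adjusted p = 4.8e-06) at 28 DAA. It was 3.56 ± 0.18 (11.8-fold, adjusted p = 2.3e-07) at 14 DAA. Under the methods' t-test adjusted over all probe sets, the same differences no longer passed at 28 DAA (adjusted p = 0.027) or 14 DAA (adjusted p = 0.011). At the unadjusted p of at most 0.01 that the methods give, 4 of the 12 probe sets passed at 28 DAA and 7 at 14 DAA. With the adjustment, only 0.00164% of all probe sets passed at 28 DAA and 0.629% at 14 DAA. Since almost none passed at 28 DAA, missing that threshold there says little about the metallothionein probe set. The study put this probe set and the other annotated ones on its list for their genotype difference in these same arrays, so their own tests are not independent evidence of that difference.

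**Figure D1:**
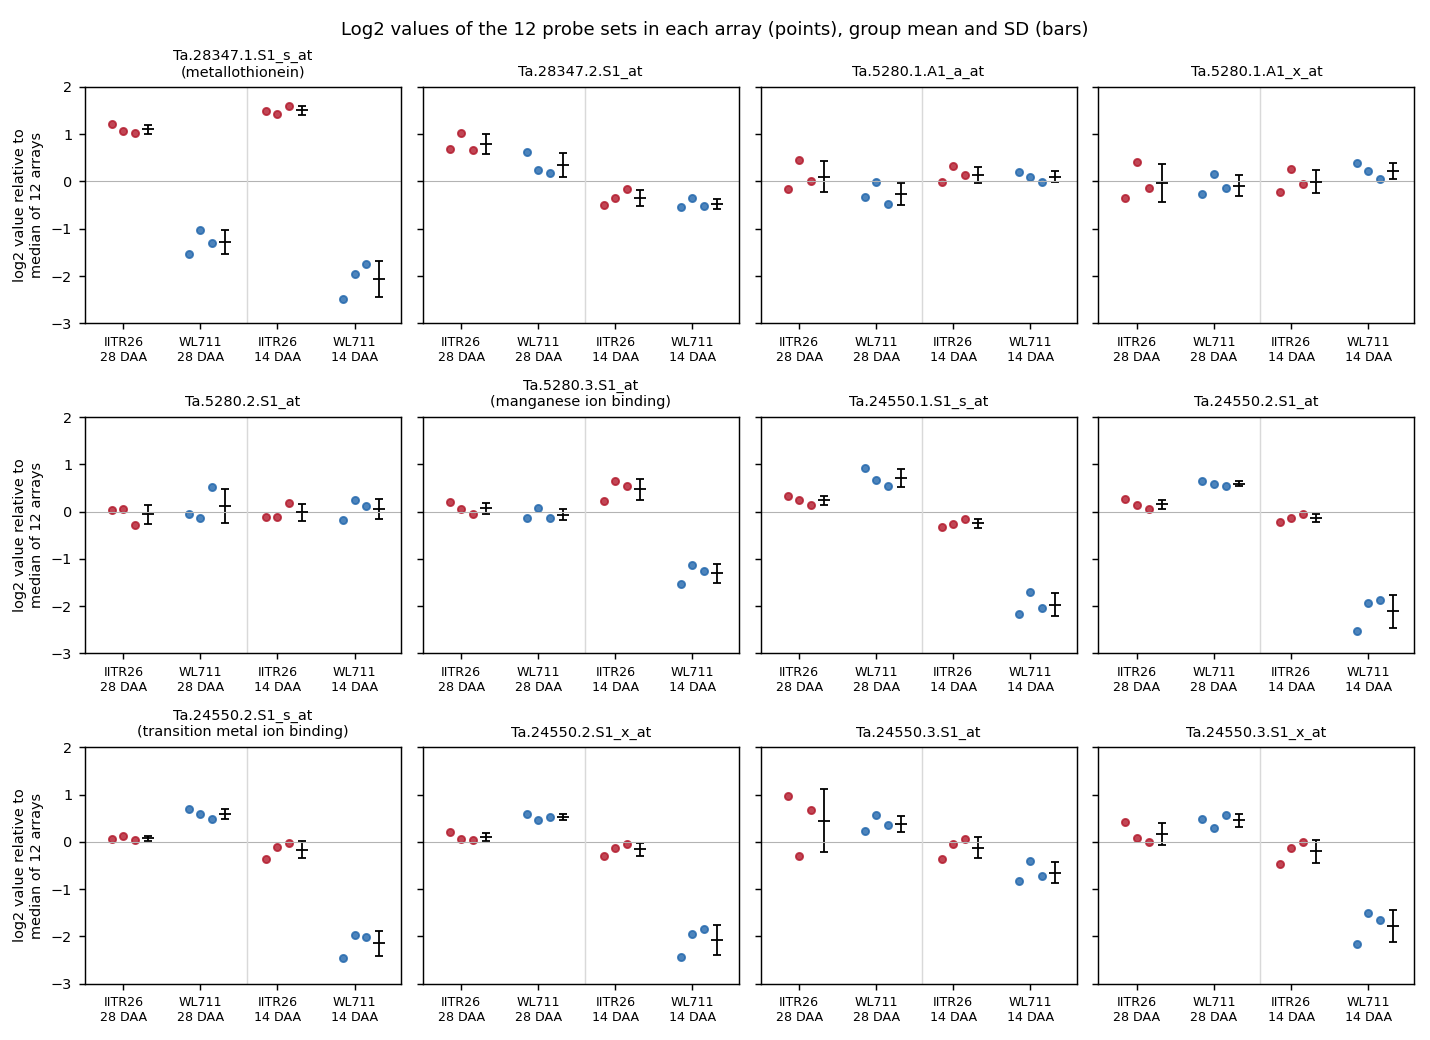
Centred log2 value of each of the 12 probe sets (y axis, 0 is its median over all arrays) in the 3 arrays of each group (points), with the group mean and SD (bars); IITR26 is red and WL711 is blue. Ta.28347.1.S1_s_at is higher in all 6 IITR26 arrays, and WL711 at 14 DAA is the lowest group of Ta.5280.3.S1_at and of all 6 probe sets of the transition metal cluster.

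The sister Ta.28347.2.S1_at had 0.68, 1.03 and 0.66 in IITR26 at 28 DAA, against 0.63, 0.24 and 0.17 in WL711. At 14 DAA it had -0.50, -0.36 and -0.17 in IITR26, against -0.55, -0.36 and -0.52 in WL711. At 28 DAA the lowest IITR26 array was only just above the highest WL711 array, and at 14 DAA the genotypes overlapped. Its difference was 0.44 (95% interval 0.11 to 0.77, adjusted p = 0.067) at the later stage and 0.13 (-0.19 to 0.46, adjusted p = 0.71) at 14 DAA. Both intervals end below the lower bound of the named probe set at the same stage, which was 2.0 at 28 DAA and 3.18 at 14 DAA. The named probe set was chosen for its difference on these arrays and the sister was not, so these bounds are not like with like. The quantity Ta.28347.1.S1_s_at minus Ta.28347.2.S1_at, taken within each array, differed by 1.95 between IITR26 and WL711 at 28 DAA and by 3.43 at 14 DAA. It did not overlap between genotypes at either stage, with an exact two-sided permutation p of 0.1 each, the smallest that 3 arrays against 3 allow.

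In its order of levels, the metallothionein probe set was highest in IITR26 at 14 DAA (1.5 ± 0.09, SD, n = 3 as for all groups), followed by IITR26 at 28 DAA (1.10 ± 0.10), WL711 at 28 DAA (-1.29 ± 0.26) and WL711 at 14 DAA (-2.06 ± 0.37). The arrays of neighbouring groups in this order did not overlap. The stage difference, 28 minus 14 DAA, was -0.40 in IITR26 (adjusted p = 0.13) and 0.77 in WL711 (adjusted p = 0.0083). Quantile normalization, applied to the values already centred for each probe set, turned the WL711 value to -0.19 (limma adjusted p = 0.63). It gave -1.73 in IITR26 (adjusted p = 0.00020). The order of the stages in WL711 thus differed under this setting, while alignment of array medians changed no call of the 12 probe sets. The WL711 value passed the test narrowly and was lost in 10 of the 12 fits that left out 1 array, in which it was 0.57 to 0.82. It passed only without replicate 1 of WL711 at 28 DAA (0.90) or replicate 3 of WL711 at 14 DAA (0.93). The genotype difference at 28 DAA minus that at 14 DAA was -1.18 ± 0.25 (adjusted p = 0.011), just outside the threshold. It passed without replicate 3 of WL711 at 14 DAA (-1.34, adjusted p = 0.0065). Without replicate 1 of WL711 at 28 DAA it was -1.30 (adjusted p = 0.0078), and the genotype difference at 28 DAA was then 2.26 (adjusted p = 1.4e-05).

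The sister was ordered by stage. Ta.28347.2.S1_at was higher at 28 than at 14 DAA by 1.13 ± 0.15 in IITR26 (adjusted p = 0.00013) and by 0.82 ± 0.15 in WL711 (adjusted p = 0.0019). Without replicate 1 of WL711 at 14 DAA the WL711 value was 0.79 (adjusted p = 0.010) and just missed the threshold. It was the only probe set of the 12 to pass the test for stage in IITR26, where 7.46% of all probe sets were higher at 28 DAA. Over the 12 arrays its Pearson r with Ta.28347.1.S1_s_at was 0.28, which ranked 17239 of 61178 other probe sets.

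The manganese ion binding probe set differed between genotypes at 14 DAA but not past the test at 28 DAA. Ta.5280.3.S1_at had 0.20, 0.05 and -0.05 in IITR26 at 28 DAA, against -0.14, 0.07 and -0.13 in WL711. Its 14 DAA values were 0.23, 0.65 and 0.54 in IITR26, against -1.52, -1.13 and -1.25 in WL711. The 3 WL711 arrays at 14 DAA were the lowest of the 12, and the genotypes overlapped at 28 DAA. The difference was 0.14 ± 0.14 (95% interval -0.17 to 0.44, adjusted p = 0.60) at 28 DAA and 1.77 ± 0.14 (3.41-fold, adjusted p = 8.5e-06) at 14 DAA. The difference between these differences was -1.63 ± 0.19 and passed its own limma test (adjusted p = 0.00036).

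None of its 3 sisters passed the limma test in any of the 5 comparisons. For genotype, 0 at 14 DAA and 1 at 28 DAA had an unadjusted p under 0.05, against 23.6% and 28.1% of all probe sets. Ta.5280.1.A1_a_at had -0.02, 0.32 and 0.13 in IITR26 at 14 DAA, against 0.21, 0.10 and -0.02 in WL711. Ta.5280.1.A1_x_at had -0.23, 0.26 and -0.05 in IITR26, against 0.38, 0.23 and 0.05 in WL711, and Ta.5280.2.S1_at had -0.12, -0.11 and 0.19 in IITR26, against -0.17, 0.24 and 0.12 in WL711. The genotypes overlapped in all 3 at this stage. Their differences at 14 DAA were 0.05 (95% interval -0.32 to 0.42), -0.23 (-0.67 to 0.21) and -0.08 (-0.48 to 0.32), with adjusted p of 0.59 to 0.93. Their intervals all end below the lower bound of 1.47 for Ta.5280.3.S1_at. That probe set was chosen for its difference on these arrays and the sisters were not, so these bounds are not like with like. Centred values do not show whether the sisters lie near background. At 28 DAA the differences were 0.37, 0.05 and -0.18, with adjusted p of 0.17 to 0.91.

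Within the arrays, Ta.5280.3.S1_at minus each of these sisters was higher in IITR26 than in WL711 at 14 DAA by 1.72, 2.0 and 1.85, with no overlap and an exact permutation p of 0.1 each. At 28 DAA the same quantities differed by -0.24, 0.08 and 0.32, and the genotypes overlapped (exact p of 0.3 to 0.8). Over the 12 arrays Ta.5280.3.S1_at had r of 0.01, -0.36 and -0.09 with its sisters.

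Its order of levels was IITR26 at 14 DAA (0.47 ± 0.22), IITR26 at 28 DAA (0.07 ± 0.12), WL711 at 28 DAA (-0.07 ± 0.12) and WL711 at 14 DAA (-1.30 ± 0.20). Of neighbours in this order, the 28 DAA groups overlapped and WL711 at 14 DAA lay below all others. It was higher at 28 than at 14 DAA in WL711 by 1.23 ± 0.14 (adjusted p = 6.2e-05). In IITR26 the stage difference was -0.41 ± 0.14 (adjusted p = 0.049). The stage difference of WL711 and the genotype difference at 14 DAA both use the WL711 arrays at 14 DAA, so one is not independent of the other, here and in the transition metal cluster.

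The transition metal ion binding probe set was the only annotated one with sisters that passed the test the same way at 14 DAA, and these may share probes or targets with it. Ta.24550.2.S1_s_at had 0.07, 0.13 and 0.03 in IITR26 at 28 DAA, against 0.69, 0.59 and 0.49 in WL711. The values at 14 DAA were -0.37, -0.11 and -0.03 in IITR26, against -2.45, -1.98 and -2.01 in WL711. The genotypes did not overlap at either stage, and the IITR26 arrays lay below those of WL711 at 28 DAA and above them at 14 DAA. The difference was -0.52 ± 0.14 (adjusted p = 0.022) at 28 DAA, which did not pass the test, and 1.98 ± 0.14 (3.95-fold, adjusted p = 3.2e-06) at 14 DAA. The difference between these differences was -2.50 ± 0.19 (adjusted p = 2.1e-05).

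Of its 5 sisters, 4 were higher in IITR26 at 14 DAA past the test. Ta.24550.2.S1_at had -0.22, -0.14 and -0.06 in IITR26 at 14 DAA, against -2.52, -1.94 and -1.87 in WL711. Ta.24550.1.S1_s_at, from another sequence of the cluster, had -0.33, -0.26 and -0.15 in IITR26, against -2.17, -1.70 and -2.03 in WL711. In both, the IITR26 arrays lay well above the WL711 arrays. Their differences amounted to 1.97 ± 0.15 (adjusted p = 7.5e-06) and 1.72 ± 0.14 (adjusted p = 9.4e-06). The remaining sisters that passed were Ta.24550.2.S1_x_at at 1.92 ± 0.14 (adjusted p = 5.6e-06) and Ta.24550.3.S1_x_at at 1.57 ± 0.18 (adjusted p = 0.00019). Ta.24550.2.S1_at and Ta.24550.2.S1_x_at are of the same sequence as the annotated probe set. Ta.24550.1.S1_s_at and Ta.24550.3.S1_x_at have suffixes for probes that can also match other transcripts. These 4 are therefore not shown to be independent repeats.

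The fifth sister was Ta.24550.3.S1_at, with -0.36, -0.05 and 0.05 in IITR26 at 14 DAA, against -0.83, -0.41 and -0.72 in WL711. Its IITR26 arrays were the higher ones without overlap, and the difference of 0.53 ± 0.27 (95% interval -0.06 to 1.11, adjusted p = 0.27) did not pass the test. At 28 DAA it had 0.97, -0.30 and 0.67 in IITR26, against 0.23, 0.56 and 0.36 in WL711. Replicate 2 of IITR26 at 28 DAA was the low one, and the SD of that group was 0.67, while the other 5 probe sets of the cluster had SDs of 0.05 to 0.22 there.

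Within the arrays, Ta.24550.2.S1_s_at minus a sister differed between genotypes at 14 DAA by 0.01 for Ta.24550.2.S1_at (exact permutation p = 0.9), 0.06 for Ta.24550.2.S1_x_at (exact p = 0.4) and 0.26 for Ta.24550.1.S1_s_at (exact p = 0.2), with overlap in each. It differed by 0.41 for Ta.24550.3.S1_x_at and by 1.45 for Ta.24550.3.S1_at, both without overlap and with an exact p of 0.1. The probe sets of the sequence numbered 3 thus had smaller differences than the annotated one in these arrays. Over the 3 clusters, the within-array difference did not overlap between genotypes for 1 of 9 sisters at 28 DAA and for 6 of 9 at 14 DAA, against 28.9% and 35.4% of all 37562 pairs of sisters on the array. Each of the 9 pairs holds a probe set that the study chose for its genotype difference on these arrays. The pairs over the whole array were not so chosen, so the shares cannot be compared as like with like.

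At 28 DAA the genotype differences of these sisters were -0.47 (Ta.24550.1.S1_s_at, adjusted p = 0.036), -0.43 (Ta.24550.2.S1_at, 0.075), -0.42 (Ta.24550.2.S1_x_at, 0.067), -0.28 (Ta.24550.3.S1_x_at, 0.36) and 0.07 (Ta.24550.3.S1_at, 0.92). None passed the limma test, while 3 of the 5 had an unadjusted p under 0.05, against 28.1% of all probe sets. The values of 4 of the 5 were negative. When replicate 1 of WL711 at 14 DAA was left out, Ta.24550.2.S1_at (-0.43, adjusted p = 0.0095) and Ta.24550.2.S1_s_at (-0.52, adjusted p = 0.0080) passed. The difference between the stages passed for those 4, at -2.19, -2.40, -2.33 and -1.86 (adjusted p of 3.9e-05 to 0.00098), and was -0.46 for Ta.24550.3.S1_at (adjusted p = 0.53). Leaving out 1 array at a time gave -0.73 to -0.09 for that last value, and -0.20 to 0.44 for the 28 DAA difference of the same probe set.

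**Figure D2:**
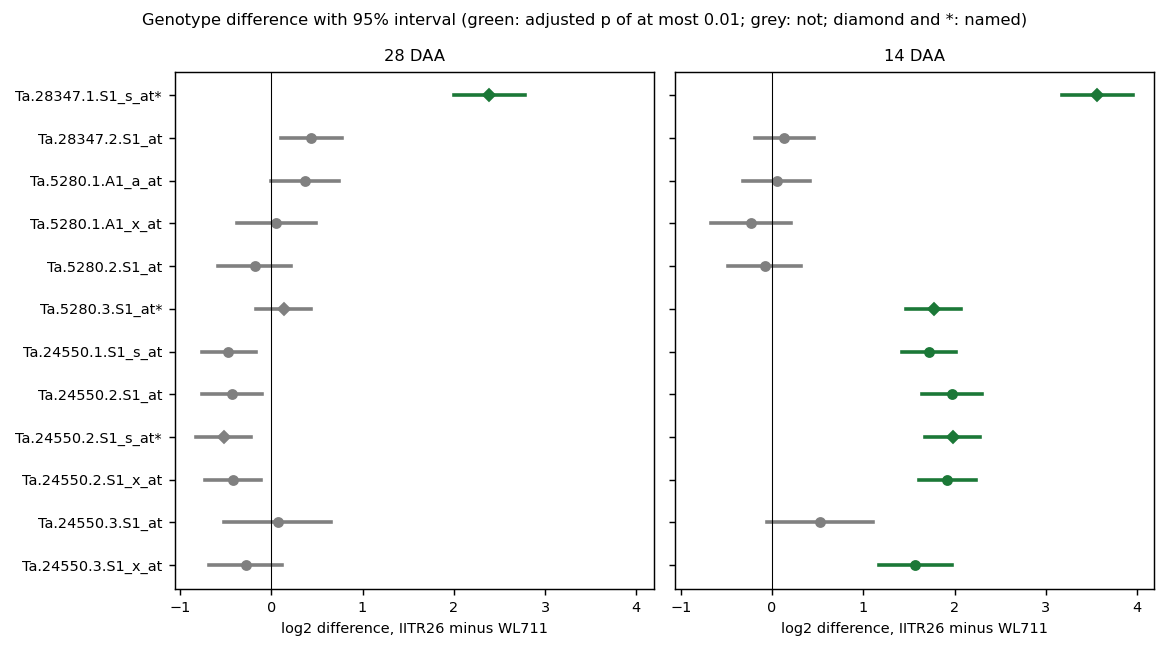
Genotype difference of the 12 probe sets on the log2 scale (x axis, IITR26 minus WL711) at 28 DAA (left) and 14 DAA (right), with 95% intervals from limma; green passed the test, grey did not, and diamonds and asterisks mark the 3 annotated probe sets. At 14 DAA 7 probe sets lie between 1.57 and 3.56, and at 28 DAA only the metallothionein probe set passed, at 2.39.

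The order of levels of Ta.24550.2.S1_s_at was WL711 at 28 DAA (0.59 ± 0.099), IITR26 at 28 DAA (0.07 ± 0.05), IITR26 at 14 DAA (-0.17 ± 0.18) and WL711 at 14 DAA (-2.15 ± 0.26). No neighbouring groups overlapped, though the gap between the IITR26 stages was the narrow one. In WL711 the probe set was higher at 28 than at 14 DAA by 2.74 ± 0.14 (6.67-fold, adjusted p = 1.4e-07), and in IITR26 the stage difference was 0.24 ± 0.14 (adjusted p = 0.25). The sisters Ta.24550.2.S1_at, Ta.24550.1.S1_s_at, Ta.24550.2.S1_x_at and Ta.24550.3.S1_x_at were higher at 28 DAA in WL711 by 2.70, 2.67, 2.60 and 2.23, all past the test. Ta.24550.3.S1_at was higher by 1.03 (adjusted p = 0.016), and by 1.03 with an adjusted p of 0.00073 or 0.0087 when replicate 2 or replicate 1 of IITR26 at 28 DAA was left out of the fit. Without that replicate 2, its stage difference in IITR26 was 0.94 (adjusted p = 0.0022), against 0.57 (adjusted p = 0.16) with it.

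Over the 12 arrays, Pearson's r of Ta.24550.2.S1_s_at was 1.0 with Ta.24550.2.S1_x_at and Ta.24550.2.S1_at, 0.99 with Ta.24550.1.S1_s_at and Ta.24550.3.S1_x_at, and 0.77 with Ta.24550.3.S1_at. Among the 61178 other probe sets these ranked 1, 2, 3, 5 and 2113.

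**Figure D3:**
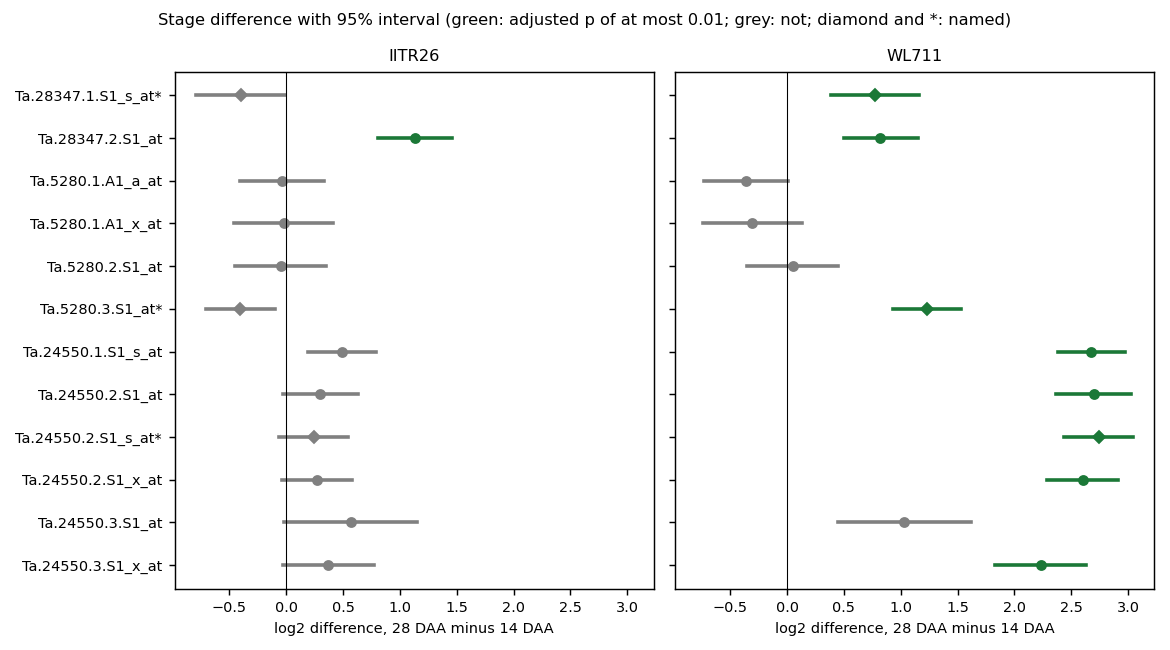
Stage difference of the 12 probe sets on the log2 scale (x axis, 28 minus 14 DAA) in IITR26 (left) and WL711 (right), with 95% intervals from limma; colours and marks are as for the genotype difference. In WL711 8 probe sets passed, between 0.77 and 2.74, and in IITR26 the sister Ta.28347.2.S1_at alone passed, at 1.13.

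Counted over all 12 probe sets, 1 was higher and 0 were lower in IITR26 past the limma test at 28 DAA, where 4.17% of all probe sets were higher and 5.56% lower, and 7 had an unadjusted p under 0.05, against 28.1% of all. At 14 DAA 7 were higher and 0 lower, against 2.79% and 3.68% of all probe sets, and 7 had an unadjusted p under 0.05, against 23.6% of all. These 7 include the 3 that the study chose for their difference, and the other 4 are all in the transition metal cluster. The median genotype difference of the 12 was -0.06 at 28 DAA and 1.65 at 14 DAA, against -0.0001 and 0.0098 over all probe sets. The genotypes did not overlap in 6 of the 12 at 28 DAA and 8 of the 12 at 14 DAA, against 28.2% and 31.7% of all probe sets. With the study's further requirement of a log2 difference of at least 2, 1 of the 12 was higher at each stage, the metallothionein probe set (over all probe sets, 0.566% at 28 DAA and 0.595% at 14 DAA). At the looser adjusted p of 0.05, 2 of the 12 were lower in IITR26 at 28 DAA, Ta.24550.1.S1_s_at and Ta.24550.2.S1_s_at, against 9.17% of all probe sets.

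For stage, 1 of the 12 was higher at 28 DAA in IITR26 and 8 in WL711, and 0 were lower in either (over all probe sets 10.1% were lower in IITR26, and 5.39% were higher and 7.71% lower in WL711). With a log2 difference of at least 2 as well, 5 were higher at 28 DAA in WL711, all in the transition metal cluster, against 0.958% of all probe sets. At an adjusted p of 0.05, 2 were higher at 28 DAA in IITR26 (Ta.28347.2.S1_at and Ta.24550.1.S1_s_at) and 1 lower (Ta.5280.3.S1_at), against 11.6% and 14.3% of all probe sets. The genotype difference was lower at 28 than at 14 DAA past the test in 6 of the 12, against 2.68% of all probe sets, and higher in 0, against 2.25%. Since 5 of these 6 belong to 1 cluster, the counts describe 3 clusters and not 12 separate genes.

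How often a sister repeats a genotype difference can be described over the whole array, where 24316 probe sets fall in 8842 clusters of 2 or more. This description was added after the data were seen, and a pair counts once for each of its probe sets that passed. Of 859 probe sets with a sister that were higher in IITR26 at 14 DAA, 483 (56.2%) had at least 1 sister past the test the same way. By pairs, 266 of 444 sisters with the same second number repeated it (59.9%), against 458 of 2033 with another second number (22.5%). At 28 DAA 808 of 1310 such probe sets (61.7%) had a sister that passed. The metallothionein and manganese probe sets, whose sisters all carry another second number, had 0 of 1 and 0 of 3 at 14 DAA. Ta.24550.2.S1_s_at had 2 of 2 with the same second number and 2 of 3 with another.

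Among 772 probe sets with a function or gene name, those with the levels most like the metallothionein probe set over the 12 arrays were a peroxin Pex14 (Ta.9561.3.S1_a_at, r = 0.99), a hypothetical protein (Ta.12095.1.A1_at, r = 0.989) and puroindoline-A (Ta.23141.1.S1_at, r = 0.986), a grain softness protein. For the manganese ion binding probe set they were a retrotransposon gag protein (TaAffx.118872.1.S1_x_at, r = 0.964), a folic acid binding protein (Ta.3025.1.A1_at, r = 0.947) and a serpin (Ta.1314.1.S1_s_at, r = 0.947). For the transition metal ion binding probe set they were a cupin (Ta.30754.1.S1_at, r = 0.981), the salt-induced peptide ESI3 (Ta.27725.1.S1_at, r = 0.976) and a basic endochitinase (Ta.23888.1.S1_at, r = 0.975). Most of these probe sets stand on the study's list of differing ones, which was drawn from the same 12 arrays.

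Other metal homeostasis genes could be sought only among the 772 probe sets with a function or gene name. Genes on the array without such a name are not covered. The list, by words such as metallothionein, nicotianamine, ferritin and superoxide dismutase, found 5 probe sets, the 3 above and 2 others. Relative to WL711, IITR26 had 1 of the 5 higher and 2 lower past the test at 28 DAA (over all probe sets, 4.17% and 5.56%). The counts at 14 DAA were 3 higher and 1 lower (over all probe sets, 2.79% and 3.68%). The median differences were -0.52 and 1.77. All 5 stand on the study's list of differing probe sets, so the counts are not independent evidence of a direction.

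The nicotianamine synthase 3 probe set, Ta.771.1.S1_at, had -2.29, -2.27 and -2.77 in IITR26 at 28 DAA, against -0.06, 0.30 and -0.08 in WL711. The 14 DAA values were 0.04, -0.04 and 0.27 in IITR26, against 0.11, 0.31 and 0.43 in WL711. The 3 IITR26 arrays at 28 DAA were low and the other 9 lay close together. The difference was -2.49 ± 0.16 (adjusted p = 1.9e-06) at the later stage and -0.19 ± 0.16 (adjusted p = 0.57) at 14 DAA. The stage difference was -2.53 in IITR26 (adjusted p = 6.9e-07) and -0.23 in WL711 (adjusted p = 0.37), and the difference between the genotype differences was -2.30 (adjusted p = 0.00011). The mean of 2 endosperm transfer cell probe sets, PR9 and PR60, was low in the same arrays, at -6.34 to -5.77 in IITR26 at 28 DAA, against -0.80 to 0.12 in WL711. Their part in this result was not tested. Metallothionein at 28 DAA was thus higher in IITR26 while nicotianamine synthase 3 was lower.

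The superoxide dismutase probe set, Ta.1944.1.S1_at, had -2.83, -3.17 and -2.77 in IITR26 at 28 DAA, against 3.20, 2.77 and 3.16 in WL711. At 14 DAA it had -3.03, -2.81 and -2.9 in IITR26, against 4.08, 3.55 and 3.46 in WL711. All IITR26 arrays lay far below all WL711 arrays. The difference was -5.97 ± 0.18 (adjusted p = 1.4e-08) at the later stage and -6.61 ± 0.18 (adjusted p = 3.4e-09) at 14 DAA. This was the largest genotype difference in size among the 5 and opposite in sign to that of the metallothionein probe set.

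Chelator genes that the platform names, and that were looked up by name after the data were seen, were phytochelatin synthase (PCS1, Ta.232.1.S1_at) and deoxymugineic acid synthase (DMAS1), with 3 probe sets. In IITR26 against WL711, 0 of the 4 passed the test at 14 DAA in limma, with differences of -0.14 to -0.04. None had an unadjusted p under 0.05 there, against 23.6% of all probe sets. At 28 DAA 1 was higher past the test, against 4.17% of all probe sets. That one was Ta.5335.3.S1_a_at, with -0.02, 0.04 and 0.06 in IITR26 at 28 DAA, against -0.58, -0.44 and -0.37 in WL711. Its difference of 0.49 ± 0.09 (adjusted p = 0.0032) was not shared by the other DMAS1 probe sets, at -0.07 and -0.31 (adjusted p of 0.87 and 0.26). The PCS1 probe set was at -0.81 ± 0.20 (adjusted p = 0.014).

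**Figure D4:**
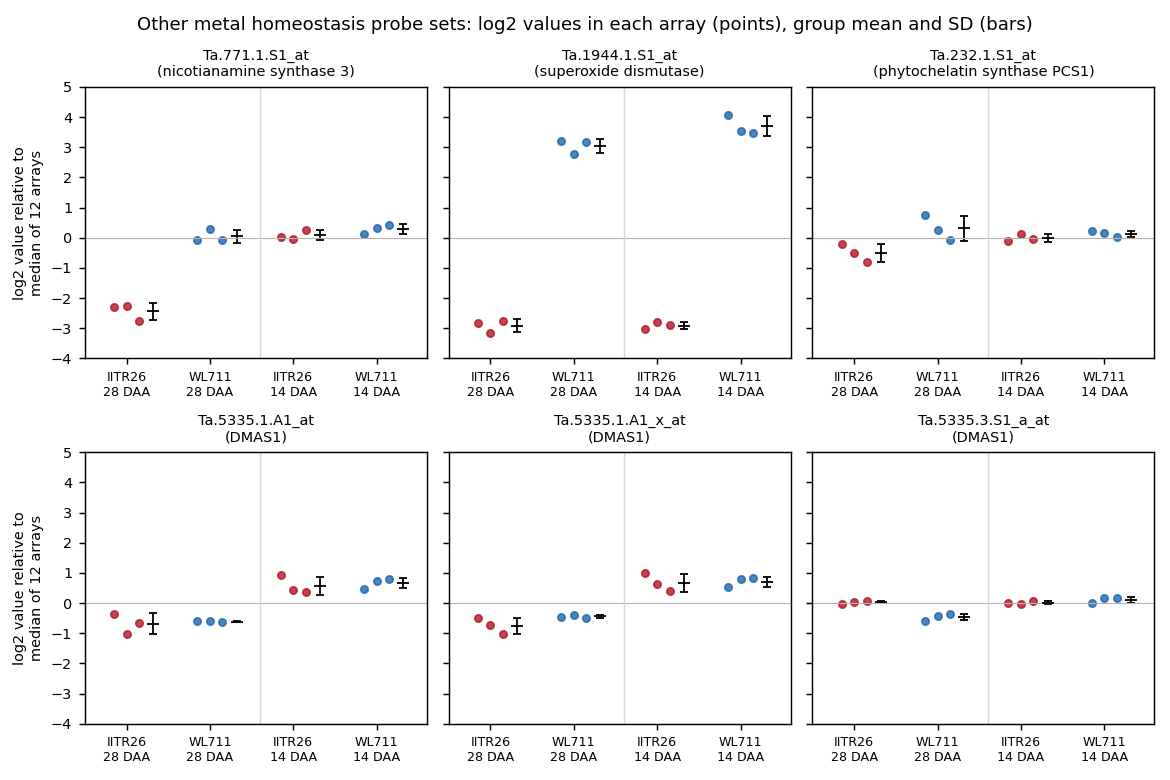
Centred log2 value (y axis, 0 is the median over all arrays) for nicotianamine synthase 3, superoxide dismutase, PCS1 and 3 DMAS1 probe sets in the 3 arrays of each group (points), with the group mean and SD (bars); IITR26 is red and WL711 is blue. Nicotianamine synthase 3 is low only in IITR26 at 28 DAA, and superoxide dismutase is low in all IITR26 arrays.

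Under the heading of metal-related genes in the study's own list are 14 probe sets, 3 of them those annotated above. Of the other 11, IITR26 had 5 lower past the test and none higher at 28 DAA (over all probe sets, 5.56% and 4.17%). At 14 DAA it had 6 higher and 4 lower (over all probe sets, 2.79% and 3.68%). Their median difference was -0.99 at 28 DAA and 2.0 at 14 DAA. The study chose these too by their difference on these arrays.

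Markers of grain tissues, taken by name from the study's list and so chosen on these arrays, moved with some of the groups. Over all probe sets, 2.79% were higher and 3.68% lower in IITR26 past the test at 14 DAA. The shares at 28 DAA were 4.17% and 5.56%. The mean of 5 starchy endosperm probe sets lay between -0.26 and -0.04 in the IITR26 arrays at 14 DAA and between -2.68 and -2.50 in those of WL711, and 3 of the 5 were higher and 1 lower in IITR26. The 28 DAA arrays gave -1.13 to -0.64 in IITR26 and -1.77 to 0.57 in WL711. The mean of this list was thus lowest in WL711 at 14 DAA, as were Ta.24550.2.S1_s_at and Ta.5280.3.S1_at. The gliadins of the list gave this, with differences of 5.25, 8.56 and 2.88 at 14 DAA. WL711 at 14 DAA was instead the highest group of the avenin-like protein (-3.58) and of glucose-1-phosphate adenylyltransferase (-0.66). The part of cell composition in the results of the metal ion binding probe sets was not tested. The mean of 9 green pericarp probe sets was 0.50 to 0.89 in IITR26 and 2.57 to 2.98 in WL711 at 14 DAA, with 8 of 9 lower in IITR26. The later stage gave -1.89 to -1.69 in IITR26 and -0.72 to -0.46 in WL711, with 4 of 9 lower. The mean of 6 embryo and aleurone probe sets was 2.54 to 3.10 in IITR26 and 0.85 to 1.36 in WL711 at 28 DAA, with 3 higher and 1 lower. The earlier stage gave -1.35 to -0.81 in IITR26 and -2.48 to -2.05 in WL711, again with 3 higher and 1 lower. The mean of this list too was thus lowest in WL711 at 14 DAA, though not every member was. Of these 4 lists, the 2 transfer cell probe sets had the largest median genotype difference in size, -5.61 at 28 DAA. Both were lower in IITR26 past the test there, with log2 differences of -7.16 and -4.06. At 14 DAA their mean was -0.04 to 0.55 in IITR26 and 0.82 to 1.07 in WL711, with 1 of the 2 lower. Whether any marker is absent cannot be read from centred values.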

How the data were processed

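The deposited values are log2 values of all 61290 probe sets, normalized by RMA by the authors in GeneSpring GX from the Affymetrix GeneChip Wheat Genome Array. Every probe set has a median of 0 across the 12 arrays, a centring the methods do not describe, so brightness and distance from background cannot be read. The number of arrays limits the precision.

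The 111 control probe sets were left out, and limma 3.58.1 (R 4.3.3) was fitted to the other 61179 with 1 mean per group, all 12 arrays and 8 residual degrees of freedom. P-values were adjusted after Benjamini and Hochberg over all probe sets. The code was tested on simulated data. Differences of 2 probe sets within an array were compared by an exact permutation test (scipy 1.17.1).

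The probe sets were chosen by identifier and the lists by key words, with earlier results of these data known. The probe sets named are all 12, the 3 named ones most like each annotated probe set by Pearson's r, and the metal list. Phytochelatin synthase and DMAS1 were added after the data were seen. Functions come from the study's list of differing probe sets (580 probe sets), and gene names from the platform annotation (1273 probe sets, 200 of them with more than a locus number). Alternatives were the study's fold threshold, its variation filter, an adjusted p of 0.05, quantile normalization and alignment of array medians. Others were the 2 groups alone, the replicate number as a block, each array left out, and an unpaired t-test adjusted over all probe sets. The methods give the t-test at a p of at most 0.01 and the adjustment for an analysis of variance.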

Additional observations from a re-analysis of the deposited data

Results flagged for a closer look

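The genotype difference at 28 DAA minus that at 14 DAA passed its own limma test in 6 of the 12 probe sets, and each is listed for that reason. Over all probe sets it was lower past this test in 2.68% and higher in 2.25%. The value was -1.63 for the manganese ion binding probe set Ta.5280.3.S1_at. In the cluster of the transition metal ion binding probe set it was -2.50 for Ta.24550.2.S1_s_at, -2.40 for Ta.24550.2.S1_at, -2.33 for Ta.24550.2.S1_x_at, -2.19 for Ta.24550.1.S1_s_at and -1.86 for Ta.24550.3.S1_x_at. In all 6 the arrays of WL711 at 14 DAA were the lowest group. The study chose Ta.5280.3.S1_at and Ta.24550.2.S1_s_at for their genotype difference on these same arrays. The rest are sisters in the transition metal cluster and are not shown to be independent repeats.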

How the results depend on the processing

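Aligning array medians and the variation filter left every count of probe sets past the test within 1.5 times, as did fits of the 2 groups alone. Adding the study's log2 fold of at least 2 left 1 of the 12 higher in IITR26 at 14 DAA in place of 7, 5 higher at 28 DAA in WL711 in place of 8, 0 in IITR26 in place of 1, and 1 of the metal list higher at 14 DAA in place of 3. With an unpaired t-test adjusted over all probe sets, 0 of the 12 were higher in IITR26 at 14 DAA, 0 at 28 DAA, 0 at 28 DAA for stage in IITR26 and 2 in WL711. In the same order, 0.629%, 0.00164%, 2.86% and 1.32% of all probe sets passed it in either direction. At an unadjusted p under 0.05 the t-test gave 8, 5, 6 and 9 of 12 in either direction, against 23.5%, 20%, 29.5% and 27.6% of all probe sets. In the metal list it called 0 as higher and 1 as lower at 14 DAA, and 0 as higher and 0 as lower at 28 DAA. At each stage 4 of 5 had an unadjusted p under 0.05. At an adjusted p of 0.05, 2 of the 12 were lower in IITR26 at 28 DAA in place of 0, and in IITR26 2 were higher at 28 DAA for stage and 1 was lower. Quantile normalization of the centred values gave 2 lower in IITR26 at 28 DAA and 1 lower for stage in IITR26. It turned the stage difference of metallothionein in WL711 to -0.19 (limma adjusted p = 0.63) in place of 0.77, and its value in IITR26 was then -1.73 (adjusted p = 0.00020). The cause was not tested.

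Leaving out 1 array gave 1 to 2 higher for stage in IITR26, 6 to 8 in WL711, 0 to 2 lower in IITR26 at 28 DAA and 6 to 7 with a lower difference at 28 than at 14 DAA, with 7 and 1 higher in IITR26 at 14 and 28 DAA throughout. For the metal list, 2 to 3 were lower at 28 DAA. The count of 2 for stage in IITR26 came without replicate 2 of IITR26 at 28 DAA or replicate 2 of WL711 at 14 DAA, and the 2 lower at 28 DAA came without replicate 1 of WL711 at 14 DAA.

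Neither the labels nor the methods pair the samples by replicate number. Same-numbered arrays of different groups had correlations of deviations from -0.0651 to 0.188, with 2 of 18 pairs above 0.1. Of the 12 arrays, 5 correlated best with their own number in every other group. What same-numbered arrays may share was not tested. With the replicate number as a block, the metallothionein stage difference in WL711 was 0.77 with an adjusted p of 0.010 and no longer passed, and no other call of the 12 probe sets changed. The 95% intervals in the text give the differences that 3 arrays a group leave unresolved.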
